A study of Caenorhabditis elegans with 66 samples.

Results

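SNAPc, the complex that activates small nuclear RNA genes, was mapped in Caenorhabditis elegans, and its peaks at the genes of its own subunits were examined. The 7 genes snpc-1.1, snpc-1.2, snpc-1.3, snpc-3.1, snpc-3.2, snpc-3.4 and snpc-4 were taken by symbol from the annotation of the genome build WBcel235. They are 7 of 46926 annotated genes and 7 of 19983 protein-coding genes. All 7 are annotated as protein-coding. A peak summit lay close to 6 of the 7 genes in tagged worms, and snpc-1.3 had none. The peak beside snpc-3.1 stood far above the others, with folds of 11.8 to 26.5 over input in the 12 libraries of SNPC-4 strains.

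SNAPc binds the promoters of small nuclear RNA (snRNA) genes through a sequence element upstream of their start and recruits RNA polymerase II or III to them. In C. elegans the same complex is also found at piRNA genes, which encode the short RNAs that guide Argonaute proteins to silence foreign and selfish sequences in the germline, and SNPC-4 is needed for their transcription. SNPC-4 is the relative of the large DNA-binding subunit SNAPC4 of mammals, the snpc-3 genes encode relatives of SNAPC3, and the snpc-1 genes encode relatives of SNAPC1. Among the last, SNPC-1.3 is known for its role in piRNA expression of the male germline.

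The study is chromatin immunoprecipitation with sequencing (ChIP-seq) of 3 FLAG-tagged subunits, with 33 immunoprecipitated (IP) libraries in 11 groups of 3 replicates and an input library for each. In dataset 1, whole gravid adults were collected at 72 h, namely untagged wild type N2, snpc-1.2::3xflag, and snpc-1.2::3xflag with snpc-4::aid and Psun-1::tir1. The last strain carries a degron on SNPC-4 and the TIR1 ubiquitin ligase subunit under the sun-1 promoter, which is active in the germline. The labels do not say whether auxin, which starts the degradation, was given. In dataset 2, whole worms were N2, snpc-4::3xflag, and snpc-4::3xflag with snpc-1.3(-) at 48 h (larval stage L4), and N2, snpc-4::3xflag, and snpc-4::3xflag with snpc-1.2(-) at 72 h (gravid adults). In dataset 3, germline nuclei of young adults were collected at 56 h from N2 and snpc-1.1::3xflag. In whole worms, fewer occupied cells and weaker occupancy per cell cannot be told apart. Since the lists hold no expression values, neither the tissue nor the loss of snpc-1.2 or snpc-1.3 could be checked in them.

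The peak lists held 4791 to 9926 peaks for SNPC-1.2 in worms with intact SNPC-4 and 67 to 281 in the SNPC-4 degron strain. They held 14538 to 16732 peaks in the 4 groups of SNPC-4 strains. SNPC-1.1 replicates 2, 3 and 4 held 14912, 1504 and 10238 peaks, so replicate 3 stood apart, and it had no summit near any of the 7 genes. The N2 lists held 2 to 16 peaks in dataset 1, 947 to 4229 in dataset 2 and 28 to 1001 in dataset 3. The labels of N2 replicate 2 at 56 h name SNPC-1.2 in the description. It was used as N2, as its title gives it. Read depth behind the lists is unknown, and a short list can miss a peak that a long one holds.

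For each gene the summit with the highest fold within 500 bp of either gene end is described. The fold is the authors' ratio of IP over input at the summit, and it serves to describe and rank peaks within a list, not to test between libraries. Presence of a peak means that at least 1 summit fell no more than 200 bp from a gene end. The annotation used gives no strand, so the ends are called the lower and the higher by their coordinates, and which of them is the start of transcription is not stated here. Values are mean ± SD over the libraries of a group that had a summit.

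The gene of the large subunit, snpc-4 (chromosome I, 8962322 to 8966129), had a summit beyond its lower end in each of the 12 lists of SNPC-4 strains. The folds were 2.25, 2.43 and 1.92 with SNPC-4 at 48 h (2.20 ± 0.257, SD, n = 3) and 3.21, 3.31 and 3.47 at 72 h (3.33 ± 0.133, n = 3). They were 2.23, 2.75 and 2.19 in snpc-1.3(-) worms at 48 h and 2.40, 2.93 and 3.21 in snpc-1.2(-) worms at 72 h. SNPC-1.1 replicates 2 and 4 had folds of 3.15 and 2.83 there, and SNPC-1.2 replicate 1 had 2.16. All 3 tagged subunits thus had at least 1 list with a summit beside snpc-4, while the 12 N2 lists had none. Among protein-coding genes with a summit within 500 bp, 72.9% to 90.2% had a fold as high or higher with SNPC-4 at 48 h. At 72 h the share was 57.2% to 63.4%. The N2 lists are shorter and can miss a peak as low as this.

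The position of this summit decided how snpc-4 was counted. It lay 207 to 248 bp beyond the gene end in the SNPC-4 strains, and 232 to 258 bp in the other tagged lists, so every summit fell just outside the 200 bp window. By that window snpc-4 had a peak in 0 of 12 lists of SNPC-4 strains, and at 250 bp it had one in 12 of 12. The summits spanned 41 bp across those 12 lists. They lay in a gap of 1439 bp between snpc-4 and F32H2.11, and no annotated gene covered them. At the other end snpc-4 overlaps mdt-31, which encodes a subunit of the Mediator coactivator. Separate summits stood there and at spd-2, a centrosome gene, the latter in 16 tagged lists with folds of 3.07 to 9.73.

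**Figure D1:**
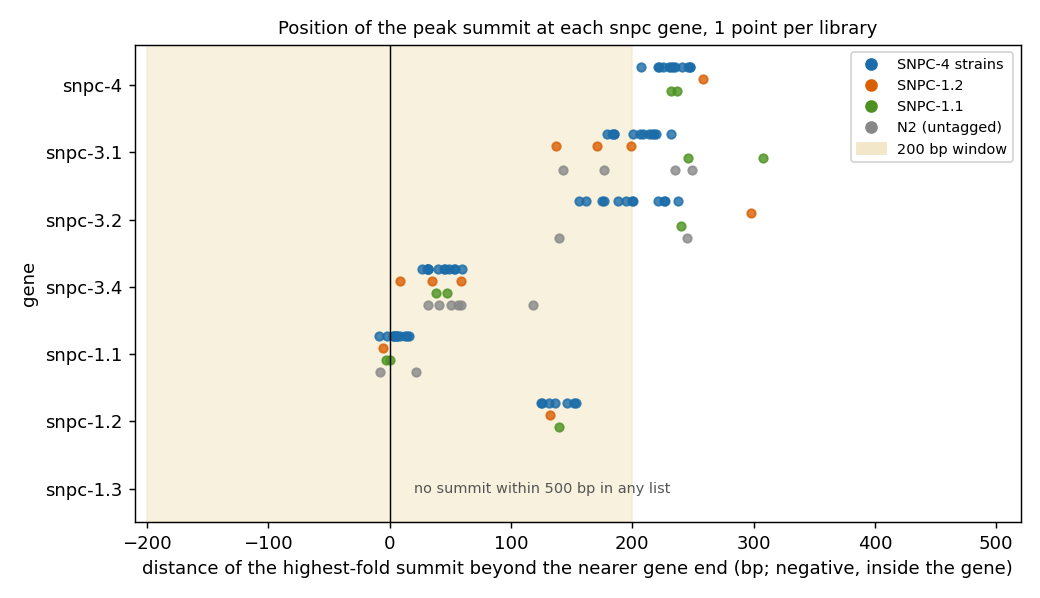
Distance in bp from the nearer gene end to the highest-fold summit within 500 bp of it, 1 point per library, for the 7 snpc genes, with the 200 bp window shaded. The snpc-4 summits sit between 207 and 258 bp, just outside the window, those of snpc-3.1 and snpc-3.2 straddle its edge, and those of snpc-3.4, snpc-1.1 and snpc-1.2 sit inside it.

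The snpc-3 genes differed most among themselves. At snpc-3.1 (chromosome IV, 5484039 to 5486258) the folds with SNPC-4 were 14.9, 14.3 and 12.5 at 48 h (13.9 ± 1.25, n = 3) and 17.7, 18.1 and 16.9 at 72 h (17.6 ± 0.609, n = 3). They were 13.6, 11.8 and 12.8 in snpc-1.3(-) worms and 20.9, 19.7 and 26.5 in snpc-1.2(-) worms. SNPC-1.2 had folds of 7.68, 9.43 and 5.08 (7.4 ± 2.19, n = 3). SNPC-1.1 replicates 2 and 4 had only 1.45 and 2.88, at summits 308 and 246 bp beyond the higher end. In the SNPC-4 strains the summit lay 179 to 232 bp beyond it. Whether the SNPC-1.1 summits mark the same site was not tested. Every list of the SNPC-4 strains and of SNPC-1.2 stood above all N2 values, which were 1.83 in 1 list at 48 h and 2.62, 2.36 and 3.2 in the 3 lists of dataset 2 at 72 h. The SNPC-1.1 values lay inside or below the range of these N2 values, which come from whole worms of dataset 2. In dataset 3, to which SNPC-1.1 belongs, 0 of 3 N2 lists had a summit there. Those N2 lists held 28 to 1001 peaks.

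In the SNPC-4 lists the place of snpc-3.1 among other genes was high. Among protein-coding genes with a summit within 500 bp, it ranked 232 to 328 of 5654 to 5856 at 48 h and 141 to 231 of 6150 to 6389 at 72 h. In snpc-1.2(-) worms it ranked 114 to 144 of 5414 to 6015. Limited to protein-coding genes with no short RNA gene within 1000 bp, 2.59% to 4.31% of those with a peak had a fold as high or higher at 48 h, 0.825% to 2.04% at 72 h, and 0.583% to 0.959% in snpc-1.2(-) worms. With SNPC-1.1 the corresponding shares were 56.6% and 98.5%, so snpc-3.1 ranked in the lower part of those lists.

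The snpc-3.1 summit lay 179 to 232 bp beyond the higher end in the 12 lists of SNPC-4 strains, and in 8 of them it was more than 200 bp away. It stood in a gap of 454 bp before puf-7, a gene of the PUF family of RNA-binding proteins, at a median position 248 bp from that gene, so the peak is about as near to puf-7 as to snpc-3.1. In the 3 SNPC-4 lists at 72 h, snpc-3.1 counted as having a peak only through weak summits 32 to 200 bp inside its lower end, with folds of 1.42 to 1.80. The gene lies in the region of chromosome IV that holds the smaller piRNA cluster. Its nearest short RNA gene is the piRNA gene 21ur-1993, which lies 1345 bp from the lower end and 3771 bp from the median summit.

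**Figure D2:**
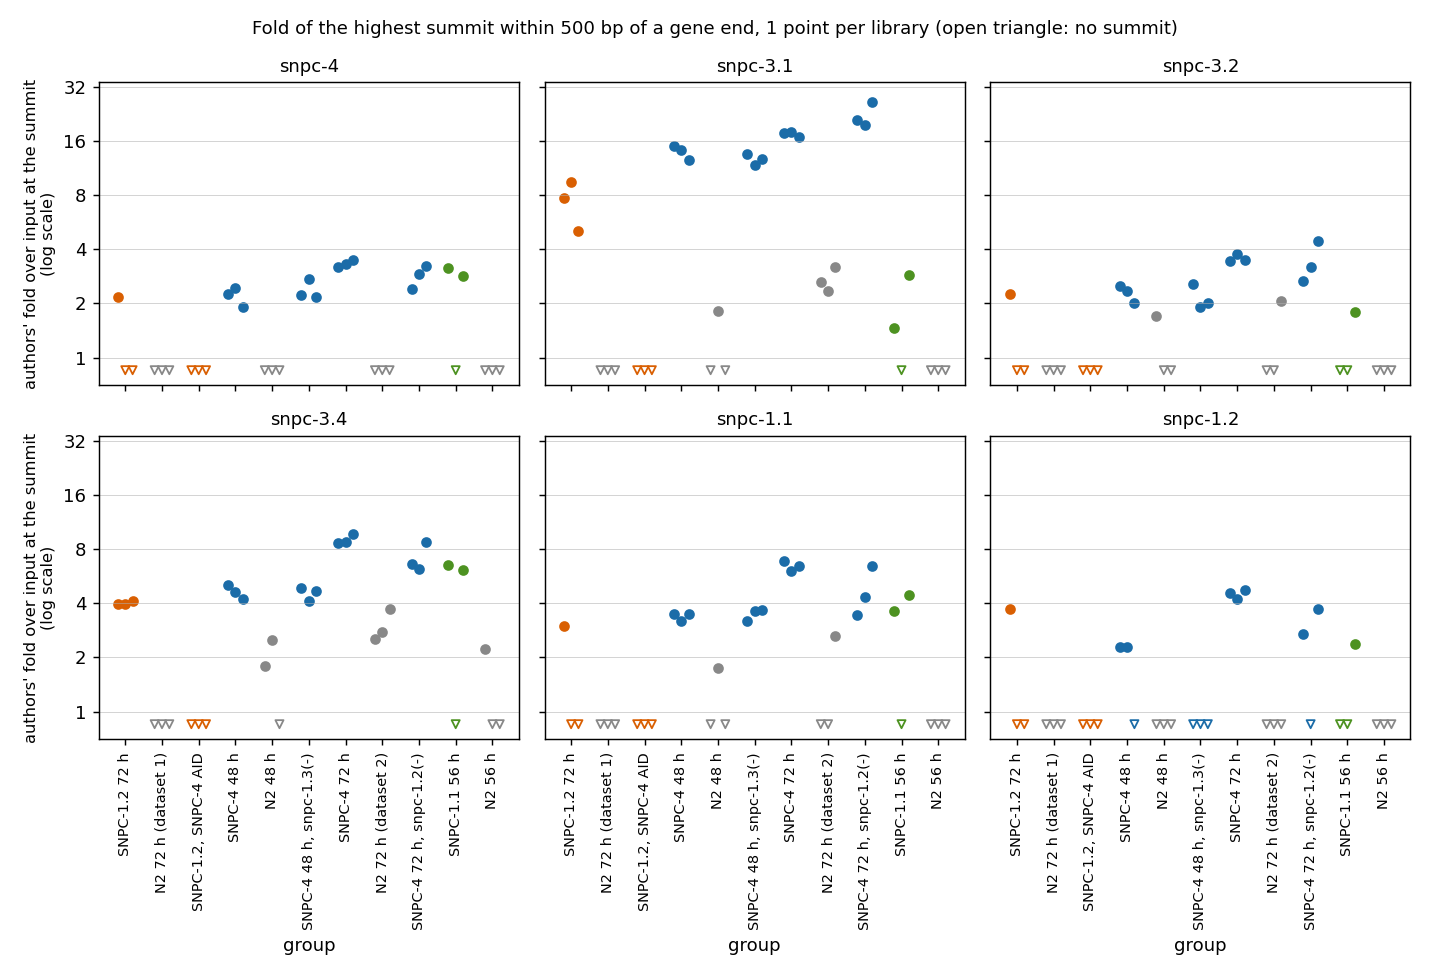
The authors' fold over input (log scale) at the highest summit within 500 bp of a gene end, for 6 snpc genes in the 11 groups, 1 point per library, with an open triangle where a library had no such summit. The snpc-3.1 points of the SNPC-4 strains sit at 11.8 to 26.5, and no point of another gene exceeds 9.78.

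The gene snpc-3.4 (chromosome III, 4020037 to 4021883) had a summit 27 to 60 bp beyond its lower end in all 12 lists of SNPC-4 strains. The folds with SNPC-4 were 5.06, 4.61 and 4.21 at 48 h (4.62 ± 0.423, n = 3) and 8.65, 8.77 and 9.78 at 72 h (9.07 ± 0.618, n = 3). They were 4.86, 4.12 and 4.69 in snpc-1.3(-) worms and 6.65, 6.20 and 8.83 in snpc-1.2(-) worms. SNPC-1.2 had 3.96, 3.97 and 4.13, and SNPC-1.1 replicates 2 and 4 had 6.57 and 6.12. Among the 7 genes the minimum fold over tagged lists with a summit was highest at snpc-3.4 (3.96) and next highest at snpc-1.1 (2.99). At snpc-3.4 N2 also had a summit at the same place in 6 lists. The N2 folds there were 1.79 and 2.49 at 48 h, 2.53, 2.77 and 3.73 at 72 h and 2.23 at 56 h. Within the N2 lists this was a high peak, at the 81.1 to 89.0 percentile of folds at 72 h. All tagged folds lay above all N2 folds at this gene. When the dataset 2 lists of SNPC-4 and N2 were each shortened to their 947 peaks of lowest q, the snpc-3.4 peak remained in 3 of 3 N2 lists at 72 h and in 0 of 3 SNPC-4 lists. Within 500 bp, a snpc-3.1 summit also remained in 3 of 3 N2 lists at 72 h, and in 3 of 3 SNPC-4 lists at each age. In the full N2 lists at 72 h the snpc-3.1 summit stood at the 71.3 to 84.0 percentile.

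A short noncoding RNA gene, C36E8.10 (chromosome III, 4018117 to 4018305, 189 bp long), is the nearest annotated gene on that side of snpc-3.4, across a gap of 1731 bp. It had summits of its own in 14 of 21 tagged lists, with folds of 3.72 to 13.8, and in 5 of 12 N2 lists, with folds of 1.63 to 2.06. In 11 tagged lists and 1 N2 list the authors' caller joined the peaks at C36E8.10 and at snpc-3.4 into a single region with separate summits. The values given for snpc-3.4 are those of its own summit.

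The remaining gene of this family, snpc-3.2 (chromosome I, 252107 to 254294), had low folds. They were 2.49, 2.34 and 2.00 with SNPC-4 at 48 h (2.28 ± 0.251, n = 3) and 3.45, 3.78 and 3.47 at 72 h (3.57 ± 0.184, n = 3). They were 2.55, 1.92 and 2.02 in snpc-1.3(-) worms and 2.66, 3.19 and 4.44 in snpc-1.2(-) worms. SNPC-1.2 replicate 1 had 2.27 and SNPC-1.1 replicate 4 had 1.78. N2 of dataset 2 had 1.71 in 1 list at 48 h and 2.05 in 1 list at 72 h. Taken over all ages and datasets, the lowest tagged values overlap with N2. At each age of dataset 2, every tagged fold lay above the single N2 fold. The N2 lists of datasets 1 and 3 had no summit there. The summit lay 156 to 238 bp beyond the lower end in the SNPC-4 strains and passed 200 bp in 5 of the 12 lists. It stood in a gap of 526 bp before the pseudogene Y48G1BM.8.

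The snpc-1 genes were led by snpc-1.1 (chromosome II, 7779297 to 7781301), whose summit sat on the gene end itself. It lay from 9 bp inside to 16 bp beyond the higher end in the 12 lists of SNPC-4 strains. The folds with SNPC-4 were 3.47, 3.21 and 3.47 at 48 h (3.38 ± 0.152, n = 3) and 6.90, 6.04 and 6.46 at 72 h (6.47 ± 0.430, n = 3). They were 3.2, 3.63 and 3.66 in snpc-1.3(-) worms and 3.43, 4.33 and 6.43 in snpc-1.2(-) worms. SNPC-1.1, the product of the gene, had 3.62 and 4.48 in replicates 2 and 4, and SNPC-1.2 had 2.99 in replicate 1. N2 replicate 2 at 48 h had 1.74 and N2 replicate 3 at 72 h had 2.63, both below every tagged value. The next gene, spdl-1, which encodes a kinetochore protein, begins across a gap of 264 bp and had no summit of its own within 200 bp in any tagged list.

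The gene snpc-1.2 (chromosome III, 13165659 to 13169541) had a peak that not every group showed. With SNPC-4 at 72 h the folds were 4.58, 4.23 and 4.75 (4.52 ± 0.265, n = 3). At 48 h they were 2.27 and 2.30 in replicates 1 and 2, with no summit in replicate 3, and in snpc-1.3(-) worms at 48 h none of the 3 lists had a summit. SNPC-1.2 replicate 1 had 3.73 and SNPC-1.1 replicate 4 had 2.37. None of the 12 N2 lists had a summit within 500 bp. The summits lay 125 to 154 bp beyond the higher end, in a gap of 374 bp before Y39E4B.5.

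In the strain that carries snpc-1.2(-), the snpc-1.2 gene kept a peak in replicates 1 and 3, with folds of 2.71 and 3.72, and had none in replicate 2. The called regions in these 2 lists started 27 to 35 bp beyond the gene end. In the 7 other tagged lists with a peak here the regions started inside the gene, and their summits lay 125 to 146 bp beyond its end. By overlap of the region with the gene body, snpc-1.2 was therefore covered in 3 of 3 SNPC-4 lists at 72 h and in 0 of 3 lists of the snpc-1.2(-) strain. The extent of the lesion in the snpc-1.2(-) allele is not given in the labels. A noncoding RNA gene of 57 bp, Y39E4B.17, lies inside snpc-1.2 and had no summit within 200 bp in any tagged list.

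No summit lay within 1000 bp of snpc-1.3 (chromosome V, 5437084 to 5439168) in any of the 33 lists. Having no peak in any list within 500 bp was common, applying to 55.1% of protein-coding genes. The nearest summit in the 12 lists of SNPC-4 strains was 3829 to 3854 bp beyond its lower end, with folds of 3.05 to 5.5. It stood at the far end of acl-6, an acyltransferase-like gene whose near end overlaps snpc-1.3. The microRNA gene mir-255, which lies 1471 bp from the higher end, also had no summit within 200 bp in any tagged list.

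Each tagged strain was then compared with N2 for the presence of a peak within 200 bp. For SNPC-4 at both ages together, an exact two-sided permutation test stratified by age (400 labellings, smallest p 0.005), adjusted by the Benjamini-Hochberg method over all 46926 genes, called 0 of the 7 genes, where 5.19% of protein-coding genes were called. By unadjusted p of 0.05 or less 1 of the 7 passed, beside 10.2% of protein-coding genes. That gene was snpc-1.2, with a peak in 5 of 6 SNPC-4 and 0 of 6 N2 lists (exact permutation p = 0.02, adjusted p = 0.0866). At snpc-1.1 and at snpc-3.1 a peak was in 6 of 6 SNPC-4 and 2 of 6 N2 lists (exact permutation p = 0.08, adjusted p = 0.293). At snpc-3.1 the SNPC-4 lists at 72 h counted only through weak summits near its lower end, with folds of 1.42 to 1.80. At 500 bp the snpc-3.1 counts were 6 of 6 and 4 of 6 (adjusted p = 0.829, exact permutation test). At snpc-3.4 a peak was in 6 of 6 and 5 of 6 lists, and at snpc-3.2 in 4 of 6 and 1 of 6.

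In this test of SNPC-4 against N2, a wider window changed the call of 1 gene, snpc-4. At snpc-4 a window of 500 bp gave 6 of 6 SNPC-4 lists and 0 of 6 N2 lists, with an adjusted p of 0.0148 by the exact permutation test, whereas 10.7% of protein-coding genes were called at that window. For snpc-3.1, the called regions overlapped the gene body in 6 of 6 SNPC-4 lists and in 0 of 6 N2 lists (adjusted p = 0.0137, exact permutation test on region overlap), where 11.6% of protein-coding genes were called. In 4 of those N2 lists a region started 4 to 28 bp beyond the gene end, and the other 2 had no summit within 500 bp.

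**Figure D3:**
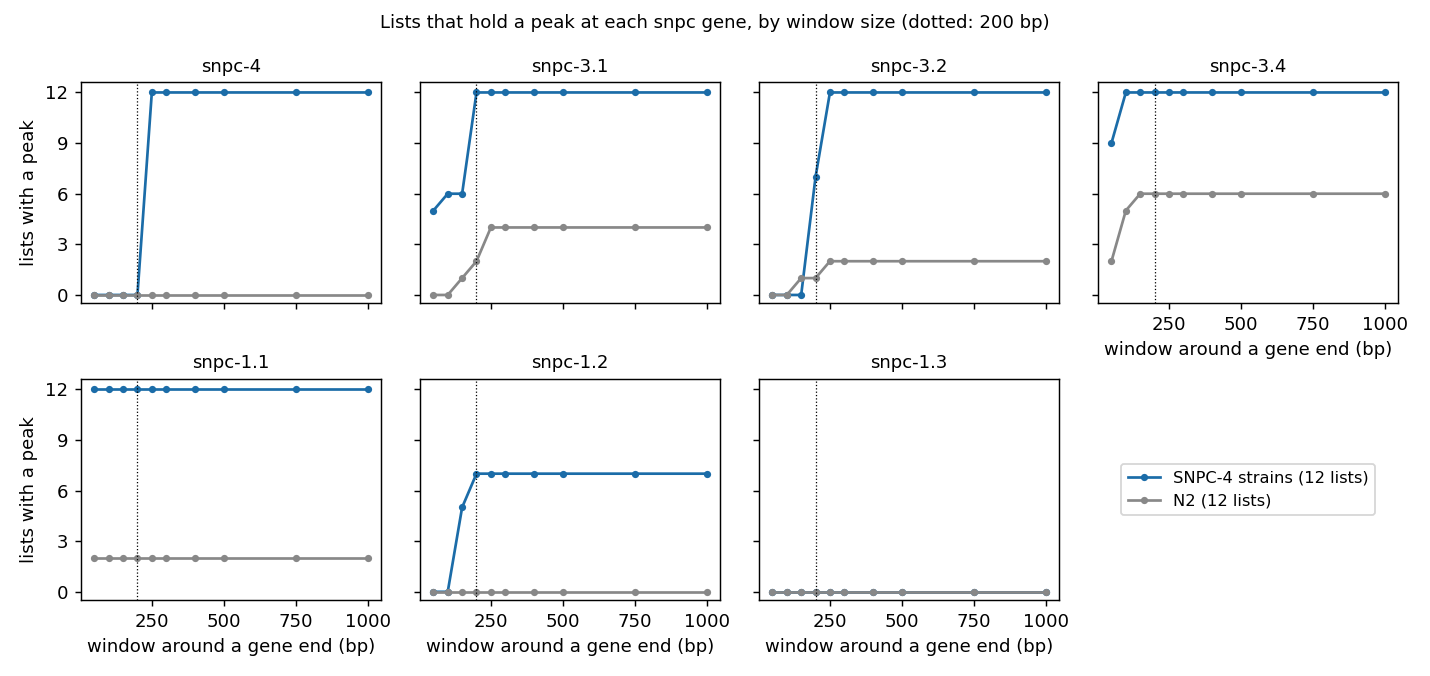
Number of lists with a summit within a given distance in bp of either gene end, for the 12 lists of SNPC-4 strains and the 12 N2 lists, for each of the 7 snpc genes. The snpc-4 line goes from 0 lists at 200 bp to 12 lists at 250 bp, while N2 stays at 0 there, and snpc-3.4 is the gene with most N2 lists, 6 of 12.

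Over the 4 pairs of a tagged strain and its own N2, which include the SNPC-4 and N2 lists just described, the exact permutation test stratified by pair called 3 of the 7 genes, where 10.6% of protein-coding genes were called. They were snpc-3.1 (9 of 12 tagged and 2 of 12 N2 lists, adjusted p = 0.0180), snpc-1.2 (7 of 12 and 0 of 12, adjusted p = 0.0212) and snpc-1.1 (9 of 12 and 2 of 12, adjusted p = 0.0335, all by the exact permutation test). The snpc-3.1 count includes the weak summits near its lower end in the SNPC-4 lists at 72 h. At 500 bp it was 11 of 12 tagged and 4 of 12 N2 lists (adjusted p = 0.0103, exact permutation test). With a 100 bp window 0 of the 7 were called. Lists shortened to equal length also gave 0, but the shortest N2 list of dataset 1 holds 2 peaks. Every list was thus cut to 2 peaks, and that setting cannot decide about any gene. The snpc-3.1 call also ended with peaks of −log10 q of 5 or more (adjusted p = 0.205), the snpc-1.2 call with folds of 3 or more (0.194), and the snpc-1.1 call without SNPC-1.2 replicate 1 (0.0589, all by the exact permutation test). Of the others, snpc-3.4 had a peak in 11 of 12 tagged and 6 of 12 N2 lists (adjusted p = 0.156, exact permutation test). Without SNPC-1.1 replicate 3, which lacks it, that p was 0.0359, and without N2 replicate 2 at 56 h it was 0.0381. At 500 bp the same test called 5 of the 7 genes, adding snpc-3.2 and snpc-4 (adjusted p = 0.0457 and 0.00198, exact permutation test), where 22.3% of protein-coding genes were called.

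Single pairs of 3 against 3 cannot go below an exact permutation p of 0.1, so for them genes are only counted. With SNPC-1.2, 2 of the 7 genes, snpc-3.1 and snpc-3.4, had a peak in all 3 tagged lists and in no N2 list of dataset 1, a pattern of 1.87% of protein-coding genes. Those N2 lists hold at most 16 peaks. With SNPC-1.1, 0 of the 7 genes had this pattern, beside 0.410% of protein-coding genes. Without replicate 3 it was 1 gene, snpc-1.1. The 0.410% counts replicate 3, so it is no background for that 1 gene, and the share without replicate 3 is not given here. By the 200 bp window the replicate 3 list reached only 1.02% of protein-coding genes, against 18.3% in replicate 2 and 13.8% in replicate 4. Both snpc-3.1 and snpc-3.4 also had a peak in 3 of 3 SNPC-1.2 lists and in 0 of 3 lists of the SNPC-4 degron strain, a pattern of 1.53% of protein-coding genes. None of the 7 genes had a summit within 500 bp in the degron strain, whose lists hold at most 281 peaks. When the SNPC-1.2 lists were also shortened to 67 peaks of lowest q, the shortest of these lists, none of the 7 genes kept a peak in any list with or without the degron.

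Without snpc-1.3 at 48 h, 0 of the 7 genes lost the peak in all 3 lists and 0 gained it, beside 0.0801% and 0.125% of protein-coding genes. The nearest to a loss was snpc-1.2, with a peak in 2 of 3 SNPC-4 lists and 0 of 3 mutant lists. It counts as lost when SNPC-4 replicate 3 at 48 h is left out. At the other genes the mutant folds lay within or close to those of SNPC-4 alone, with means of 12.7 ± 0.931 and 13.9 ± 1.25 at snpc-3.1 and of 4.56 ± 0.391 and 4.62 ± 0.423 at snpc-3.4 (n = 3 each). Without snpc-1.2 at 72 h, 0 genes lost the peak and 0 gained it by the 200 bp window, beside 0.626% and 0.170%. There snpc-3.1 had mutant folds above all 3 SNPC-4 values, with means of 22.4 ± 3.65 and 17.6 ± 0.609. The mean at snpc-1.1 was 4.73 ± 1.54 in the mutant and 6.47 ± 0.430 in SNPC-4 alone (n = 3 each), and the groups overlapped.

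Between 48 h and 72 h with SNPC-4, 0 of the 7 genes gained the peak in all 3 lists and 0 lost it, beside 1.55% and 0.636% of protein-coding genes. At each of the 6 genes with a peak, all 3 folds at 72 h lay above every fold at 48 h, where snpc-1.2 had a fold in only 2 lists. The same held for 54% of the 5065 protein-coding genes with a summit within 500 bp in all 3 lists at 72 h and at least 2 at 48 h. Over all peaks, the median fold was 3.3 to 3.44 in the 3 lists at 48 h and 3.44 to 4.07 at 72 h. Measured against the other protein-coding genes of its own list, snpc-1.1 had 47.0% to 51.7% of those with a peak at or above it at 48 h and 20.1% to 28.7% at 72 h. For snpc-3.4 the shares were 26.4% to 36.3% and 9.64% to 11.7%. At snpc-1.2, snpc-3.1, snpc-3.2 and snpc-4 every share at 72 h also lay below every share at 48 h. Folds of different libraries were not tested against each other, and part of each culture may have given both ages.

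**Figure D4:**
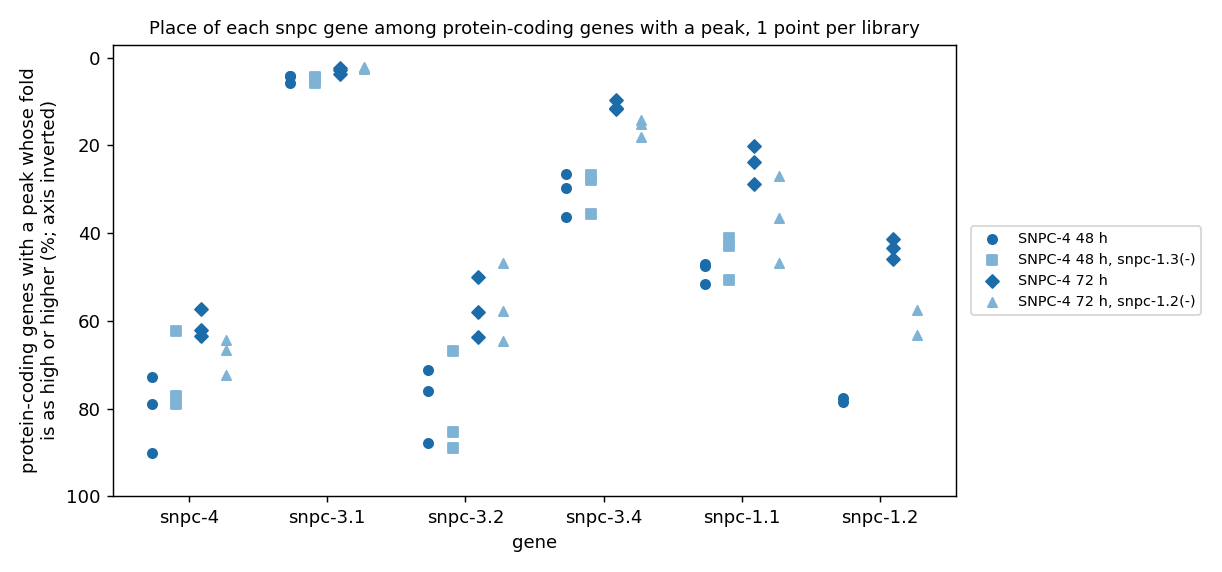
Share of protein-coding genes with a peak whose fold is as high as or higher than that of each of 6 snpc genes (%, inverted axis, so that high peaks are at the top), 1 point per library of the 4 SNPC-4 groups. The snpc-3.1 points lie at 2.12% to 5.78%. At each of the 6 genes the 72 h points of SNPC-4 without a snpc mutation lie above its 48 h points. The snpc-1.2(-) points of snpc-1.1 overlap with the snpc-1.3(-) points at 48 h.

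Some features were shared by these sites. Within 500 bp, 5 of the 7 genes (snpc-1.1, snpc-3.1, snpc-3.2, snpc-3.4 and snpc-4) had a summit in all 12 lists of SNPC-4 strains, as did 20.8% of protein-coding genes. At 5 of the 6 genes with a peak no annotated gene covered the highest-fold summit of any tagged list, and at snpc-1.1 the gene itself covered 5 of 15. None of the 6 summits lay within 1000 bp of a short RNA gene. The closest was C36E8.10, 1689 bp from the median summit at snpc-3.4. An N2 peak within 200 bp in at least 1 list was present at 4 of the 7 genes (57.1%) and at 10.3% of protein-coding genes. Those 4 were snpc-1.1, snpc-3.1, snpc-3.2 and snpc-3.4, and the share was not tested.

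Protein-coding genes with the most similar pattern were found by the mean absolute difference, over the 33 lists, of the within-list percentile of the best fold within 200 bp. For snpc-1.1 they were sld-2, a DNA replication gene, rrf-3, which encodes an RNA-dependent RNA polymerase, and nduf-11, a gene of mitochondrial complex I, with differences of 3.82, 4.06 and 4.14 percentile points. The median over all protein-coding genes compared was 31.2. For snpc-3.4 they were prp-40, a splicing factor gene, klp-16, a kinesin gene, and sip-1, a small heat shock protein gene, at 7.27, 7.74 and 8.15 beside a median of 53.1. For snpc-1.2 they were K10C8.4, ham-3 and strt-10, at 4.44, 4.56 and 4.73 beside 12.4. For snpc-3.2 they were C25A8.5, ugt-13 and H23N18.5, each at 4.97 beside 7.58. For snpc-3.1 they were Y105C5B.17, talp-3 and C52D10.3, at 15.3, 15.8 and 16.9 beside 26.5. The 200 bp window bears on these values, because it leaves out the strong snpc-3.1 summit in 8 of 12 lists of SNPC-4 strains and takes the weak summits of 1.42 to 1.80 in the SNPC-4 lists at 72 h.

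Other genes of the pathway were counted over 23 genes in 5 lists, namely partners at piRNA genes, general transcription factors, RNA polymerase III subunits, subunits of Integrator (the complex that cleaves the 3′ ends of snRNAs), and tra-1, the sex-determination factor known to repress snpc-1.3. By the test of SNPC-4 against N2 at both ages, 4 of 23 were called higher and 0 lower, namely rpc-1, ints-3, ints-9 and tra-1. This compares with 5.19% of protein-coding genes. Each of the 4 had a peak in 6 of 6 SNPC-4 lists and in 0 of 6 N2 lists. With a 100 bp window or with shortened lists 0 of 23 were called. With windows of 300 or 500 bp rpc-1, ints-3 and ints-9 were still called but tra-1 was not. By region overlap neither tra-1 nor ints-9 was called. Over the 4 pairs 9 of 23 were called, beside 10.6% of protein-coding genes, with tofu-5, ints-1, ints-2, ints-8 and ints-11 added to those 4. That count was 5 with a 100 bp window. It was 0 with shortened lists, but these were cut to 2 peaks each and cannot decide it. By the 200 bp window none of the 4 general factors was called in either test. One of them, tlf-1, was called in both tests at 500 bp and by region overlap. Of the called genes, ints-1 had 1 short RNA gene within 1000 bp and ints-8 had 3, while the others had none. Whether the peaks at ints-1 and ints-8 belong to these neighbours was not tested. With SNPC-4 at 72 h the folds within 200 bp were 3.26 to 4.14 at rpc-1 and 4.37 to 5.75 at ints-9. At tra-1 they were 3.09 to 3.61. The 16.9 to 18.1 of snpc-3.1 come from summits more than 200 bp from its end. Within 200 bp snpc-3.1 had only 1.42 to 1.80 in the same lists. Only ints-6 had a peak in all 3 SNPC-4 lists at 72 h and in none at 48 h, a pattern of 1.55% of protein-coding genes. It has 1 short RNA gene within 1000 bp. The other comparisons of single pairs called 0 of the 23, beside at most 1.87% of protein-coding genes in any of them.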

How the data were processed

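The 33 IP peak lists were used as the authors deposited them, 1 per IP library and called against its own input. The submitters' processing notes name MACS2 2.1.2, deepTools with no version and the build WBcel235. The aligner and filters are not given in the sources used here. Of the deposited columns, the fold (a ratio of IP over input at the summit) and the −log10 of the q value were used, with the summit offset as a position. The lowest deposited −log10 q was 1.30. No read counts were used, so depth is unknown and no interval is given.

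Per the labels' protocols, worms grew in liquid culture, chromatin was cross-linked with formaldehyde, and 48 h and 72 h collections could share cultures. Nothing in the labels says that replicates came from separate cultures, so p-values measure only the spread between these samples. Lists shared at most 12.5% of summits at the same base, or 2.85% where both held over 100 peaks.

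Genes came from RefSeq's annotation of WBcel235, which pairs symbols with coordinates but gave no strand. A peak was assigned to a gene from its summit, by a 200 bp window around either end, or around the whole span for genes of up to 500 bp. Peak presence was tested by exact permutation within strata, with Benjamini-Hochberg adjustment over 46926 genes and a threshold of 0.05. The smallest p over 4 strata is 1.25e-05. Scripts ran in Python 3.11.15 with numpy 2.4.6 and pandas 2.3.3, and the tests were checked on simulated data. Short RNA genes are those of short noncoding biotypes of up to 500 bp. Named beside the 7 genes are short RNA genes within 1000 bp or nearest to each, genes overlapped by a called region, the 3 most similar protein-coding genes more than 2000 bp away, and called pathway genes. Other neighbours, such as spd-2 and spdl-1, were named after their values were seen. The members and lists were chosen with earlier results of these data known. Alternatives were windows of 100, 300 and 500 bp (300 bp was chosen after seeing the data), region overlap, minimum −log10 q of 5, minimum fold of 3, lists shortened to equal length, adjustment over genes with a peak, replicate blocks, and leaving out each library.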

Additional observations from a re-analysis of the deposited data

How the results depend on the processing

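The counts of called genes among the 7 were 0 for SNPC-4 against N2, 3 over the 4 pairs, 2 for SNPC-1.2 against N2, 0 for SNPC-1.1 against N2, 2 lost in the degron strain, and 0 for both mutants and for age. For SNPC-4 against N2 the count was 1 with windows of 500 bp or 300 bp (snpc-4), with region overlap (snpc-3.1), with a fold of 3 or more (snpc-1.1) and with adjustment over genes with a peak (snpc-1.2), and 0 to 1 when a library was left out. Over the 4 pairs it was 0 with a 100 bp window, 5 with 500 bp, 0 with shortened lists, and 2 to 4 when a library was left out. For SNPC-1.2 against N2 and for the loss in the degron strain it was 1 with 100 bp (snpc-3.4) and 0 with shortened lists. Leaving out a library gave 2 to 2 in both. For SNPC-1.1 it was 0 to 1, for snpc-1.3(-) 0 to 1, and for snpc-1.2(-) and age 0 to 0. With region overlap 1 gene was lost in snpc-1.2(-), namely snpc-1.2, the gene altered in that strain. By summit, 2 of 3 lists of the strain kept its peak, and the labels do not give the extent of the lesion. With a fold of 3 or more, 1 gene was gained at 72 h (snpc-1.2) and 1 lost (snpc-3.1, whose stronger summit passes 200 bp at that age). At snpc-3.4 the difference between SNPC-4 and N2 was 16.7 percentage points, and it reversed to -66.7 with lists shortened to equal length. Shortening keeps a larger part of a short list. Over the 4 pairs and for SNPC-1.2 against N2 it cut every list to 2 peaks, so those counts of 0 decide nothing. Replicate numbers did not pair the samples: deviations of same-numbered libraries correlated at -0.226 to 0.0345, and in 0 of 8 comparisons was every pair above 0.1. With the replicate block all the same, the count was 0 over the 4 pairs (adjusted p = 0.0682 for each of the 3 genes, exact permutation test), 1 for SNPC-1.1 (snpc-1.1) and 1 for snpc-1.3(-) (snpc-1.2), and of the 23 pathway genes 0 were called for SNPC-4 against N2 and 7 over the 4 pairs. Adjusted p at snpc-1.2 over the 4 pairs ran from 0.00707 to 0.0381 when a library was left out, by the exact permutation test. Where a cause is not named, the cause was not tested. Depth is unknown, so the lack of a peak in a short list says little about occupancy.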

Other observations

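Both remaining genes with related symbols, snpc-1.4 and the pseudogene snpc-3.3, are not among the 7 and were looked up after the values of the others were seen. At snpc-1.4 (chromosome II, 4911771 to 4914218) a summit 165 to 205 bp beyond the higher end was present in 10 tagged lists and in 0 of 12 N2 lists. With SNPC-4 at 72 h its folds were 3.47, 3.01 and 4.11 (3.53 ± 0.551, SD, n = 3). These lay below the 4.23 to 4.75 of snpc-1.2 in the same 3 libraries. At snpc-3.3 (chromosome I, 216028 to 217002) a summit 255 to 311 bp beyond the lower end was present in 12 tagged lists, with folds of 1.65 to 4.77. N2 had one in 2 lists at 72 h, with folds of 2.00 and 3.3.

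Among the Integrator genes, ints-4 had a peak in 3 of 3 N2 lists at both ages of dataset 2, with folds of 1.94 to 2.96 at 48 h and 2.81 to 5.5 at 72 h, beside 8.17 to 11.7 with SNPC-4 at 72 h. It thus shared with snpc-3.4 a peak in both tagged and untagged worms.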
